A study of Mus musculus with 9 samples.

Results

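The histone lysine demethylases described here are Kdm2a, Kdm2b, Kdm3a, Kdm4a, Kdm4b, Kdm4c, Kdm4d, Kdm5a, Kdm5b and Kdm6b, measured in 3T3-L1 preadipocytes treated with X-1 or X-3 or left untreated. Members were found by gene name, older names such as Jmjd1a for Kdm3a included, and the group was put forward because Kdm4d differed from control in opposite directions under the 2 compounds. All 10 genes were found, with 21 probes on the array, of which 20 passed the filter on dim probes, against 27617 genes or unnamed features with a probe and 16736 past the filter in the whole series. The group was thus chosen by the measured differences between X-1, X-3 and control, so the members' differences are given as a description, with errors and without p-values.

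Total RNA was measured on 9 one-colour microarrays, 3 for each group. X-1 and X-3 are named as derivatives of mangiferin in the series title, and each was given at 70 µM for 24 h, while control cells were untreated. All 3 groups were 3T3-L1 cells, a clonal mouse fibroblast line that can be turned into adipocytes, cultured with 10% fetal bovine serum and starved of serum for 48 h. Per the series' design text the 9 arrays came from independent experiments, and p-values below measure the spread between these samples. In bulk RNA of this kind, fewer cells of a type and less RNA per cell cannot be told apart.

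Lysine methylation of histones marks chromatin states: methylation of lysine 4 of histone H3 lies at promoters and enhancers, that of lysines 9 and 27 at repressed chromatin, and that of lysine 36 over transcribed genes. The Jumonji C demethylases remove these methyl groups with iron, oxygen and 2-oxoglutarate, and their families differ in the lysine they act on. In fat biology the family is best known through Kdm3a, since mice that lack it become obese, and transcription of Kdm3a, Kdm4b and Kdm4c is known to rise in mammalian cells under hypoxia.

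Of the markers of preadipocytes or fibroblasts, 10 of 10 were well above background on every array of each group, and of those of mature adipocytes (Adipoq, Plin1 and Lep among them) 0 of 7 were, in any group. Endothelial markers were above background for 0 of 3 genes, leukocyte markers for 2 of 4 genes in each group (Cd68 and Csf1r, with Ptprc and Adgre1 not above it), and epithelial markers for 2 of 4 genes with X-3, against 1 of 4 with X-1 and in control. Each array had 43379 gene spots, of which 57.9 to 67.1% were well above background and 0 were saturated. Levels below are log2 intensities relative to the 75th percentile of the same array, and compare a gene's arrays with each other, not 1 gene with another.

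In genes with kept probes at least 2000 bases apart, X-3 replicate 1 stood apart from the other X-3 arrays at the probe nearer the 5′ end. Its level minus the mean of X-3 replicates 2 and 3, at the probe nearest the 5′ end, was −2.71 for Kdm5a, −2.64 for Kdm5b, −2.15 for Kdm4c, −0.90 for Kdm2b and −0.72 for Kdm4a on the log2 scale, while at the probe nearest the 3′ end it was 1.18, −0.03, 0.47, −0.10 and 0.35 in the same order of genes. Kdm3a differed by 0.27 at both probes. Over all genes, 3893 had kept probes at least 2000 and under 1000000 bases apart, which need not lie near the gene's ends. The 5′ minus the 3′ level of these genes was taken relative to the mean of the 9 arrays. Its median was 0.31, 0.10 and 0.19 in X-1 replicates 1 to 3, −0.31, 0.41 and 0.43 in X-3, and −0.36, −0.32 and −0.25 in control. The measure thus moved with treatment as well as with X-3 replicate 1, and its part in the members' differences was not tested. Some results below are given with and without X-3 replicate 1, those of Kdm4c, Kdm4d, Kdm5a and Kdm5b among them.

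**Figure D1:**
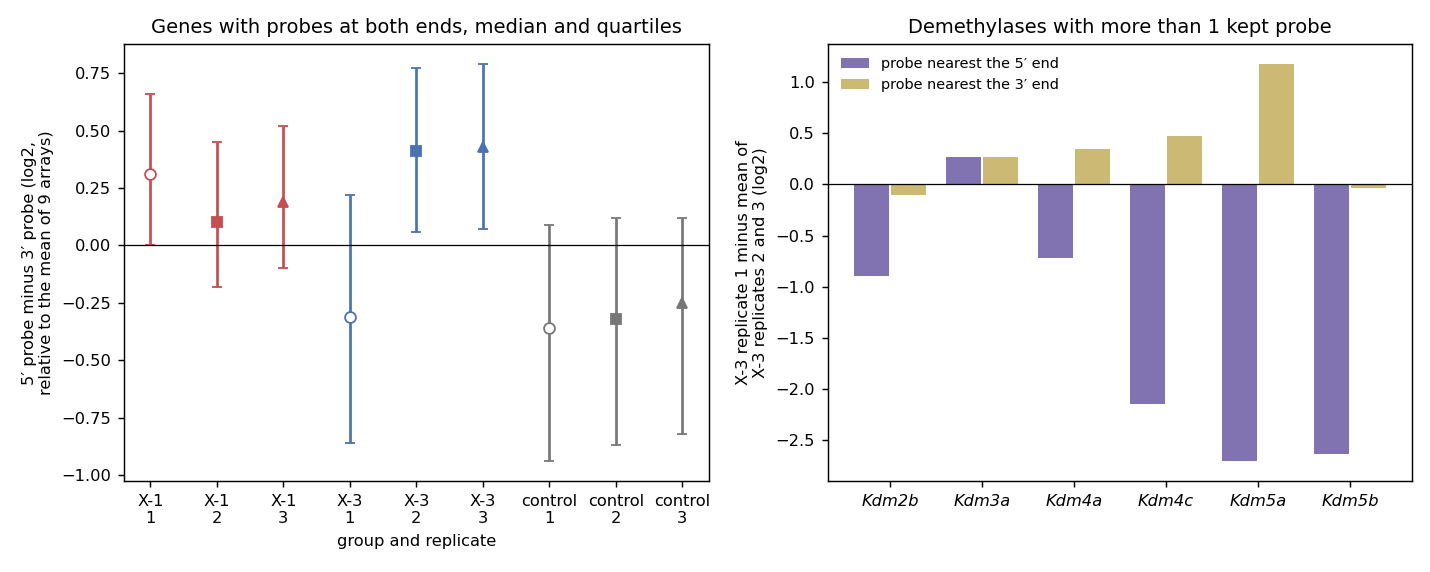
Left, the median and quartiles over 3893 genes of the log2 level at the 5′ probe minus that at the 3′ probe, on each array. X-3 replicate 1, at −0.31, lies near the control arrays (−0.36 to −0.25) and away from X-3 replicates 2 and 3 (0.41 and 0.43). Right, the log2 level of X-3 replicate 1 minus the mean of X-3 replicates 2 and 3 for the 6 demethylases with kept probes at least 2000 bases apart. It ran from −2.71 to 0.27 at 5′ probes and from −0.10 to 1.18 at 3′ probes.

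The demethylases showed 3 patterns against control. Kdm3a, Kdm4b, Kdm6b, Kdm2b and Kdm5a were higher with either compound than in control, by 0.81 to 1.72 with X-1 and by 0.86 to 1.85 with X-3 on the log2 scale. Kdm4d was lower with X-1 and higher with X-3, and Kdm4a was lower with X-1. Kdm2a was 0.51 ± 0.14 (SE) higher with X-1 and 0.08 ± 0.14 higher with X-3, and Kdm4c and Kdm5b had 95% intervals that included 0 against control with both compounds. In the limma fit across all genes, where the threshold is a Benjamini-Hochberg adjusted p of 0.05, 6 of 10 members were past it in the higher direction and 2 in the lower with X-1, where 28.0% of all genes were past it as higher and 28.2% as lower. With X-3 the counts were 6 higher and 0 lower, where 28.9% of all genes were higher and 26.4% lower, and with the replicate number as a block 6 higher and 1 lower. The median difference of the members was 0.66 with X-1 and 0.89 with X-3, against 0.06 and 0.05 over all genes. The split of calls depends on the scaling. With median scaling, 3127 genes were higher and 5115 lower with X-1 and 3081 and 4875 with X-3 (against 4690 and 4727, and 4838 and 4417), and with spike-in scaling 1543 and 9940, and 1845 and 8379. The members' counts were then 5 higher and 2 lower with X-1 and 6 and 0 with X-3 under median scaling, and 2 and 3, and 2 and 2, under spike-in scaling. With spike-in scaling, the 5 genes that were higher with either compound differed from control by −0.09 (Kdm2b) to 0.85 (Kdm6b) with X-1 and by 0.24 (Kdm2b) to 1.30 (Kdm6b) with X-3. Since these contrasts chose the group, nothing is read from the counts.

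**Figure D2:**
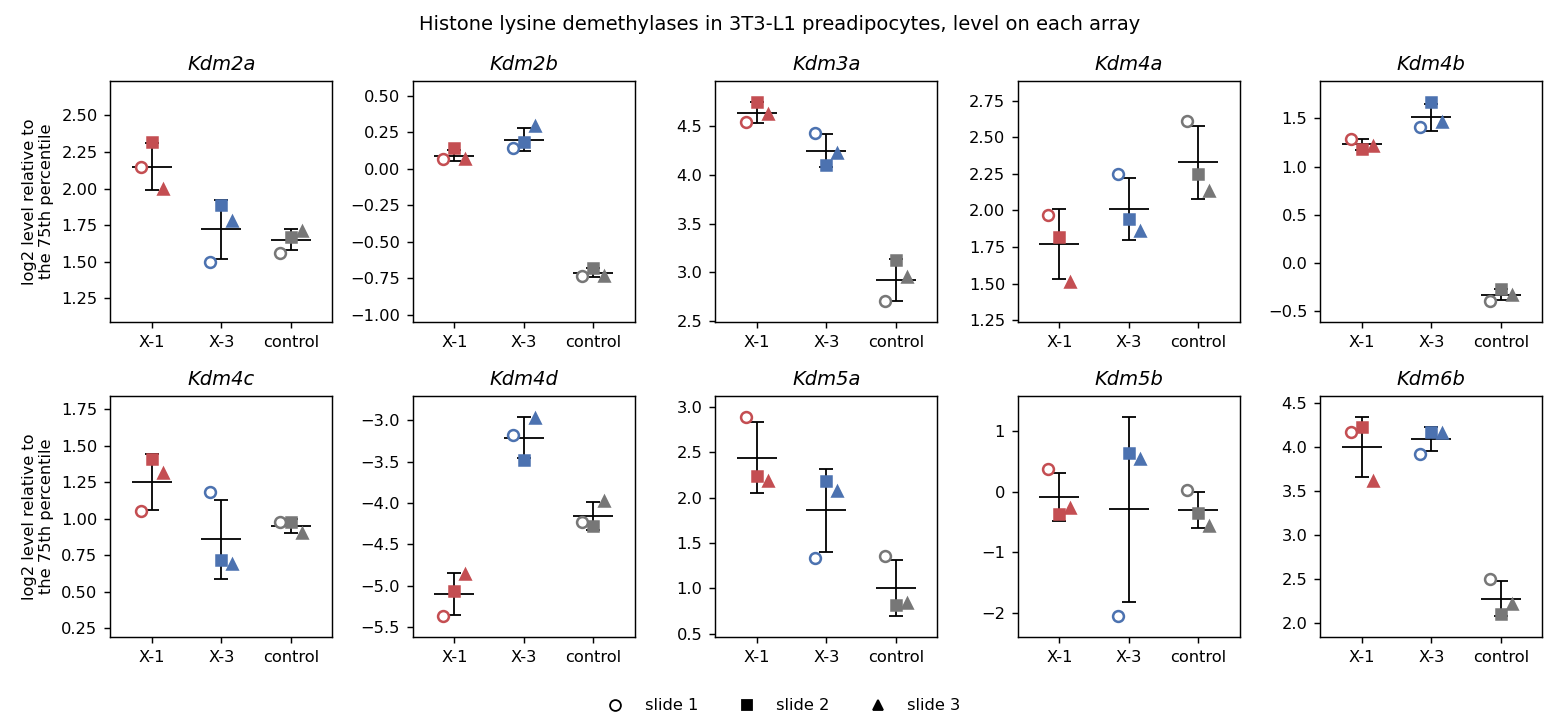
Log2 level relative to the array's 75th percentile (y axis) of each demethylase on each of the 9 arrays, by group (x axis), at the gene's brightest kept probe. Symbols mark the slide, which is also the replicate number, and bars show the mean ± SD of 3 arrays. Kdm4d lies lowest with X-1 (−5.37 to −4.86) and highest with X-3 (−3.48 to −2.98), with control between them (−4.28 to −3.98). Axes differ between panels.

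Kdm4d removes methyl groups from lysine 9 of histone H3, lacks the PHD and Tudor domains of its relatives Kdm4a to Kdm4c, and is most abundant in testis. Its only probe lay at chr9:14267091-14267150 (mm9, minus strand), and the gene at chr9:14462548-14500522 in GRCm38. These positions are of different builds and cannot be compared with each other. The Kdm4d level was −5.37, −5.07 and −4.86 with X-1, −3.18, −3.48 and −2.98 with X-3, and −4.23, −4.28 and −3.98 in control. Every X-1 array lay below every control array and every X-3 array above, with no overlap among the 3 groups. The difference from control was −0.94 ± 0.18 with X-1 (1.91-fold lower, 95% interval −1.34 to −0.53) and 0.95 ± 0.18 with X-3 (1.93-fold higher, 0.54 to 1.36), SE, with 3 arrays per group. X-3 exceeded X-1 by 1.89 ± 0.18 (3.70-fold, 1.48 to 2.30), and on the 3 slides taken singly by 2.19, 1.60 and 1.88. Leaving out X-3 replicate 1 gave 1.87, and any other single array 1.76 to 2.02.

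The Kdm4d signal was dim. Its background-subtracted intensity was 37.4, 24.7 and 26.2 units with X-1, 167, 70.1 and 112 units with X-3, and 98.5, 57.9 and 59.9 units in control. The scanner software called the spot well above background on all 9 arrays. On the log2 scale it lay 0.09, 0.73 and 0.72 above the lowest signal so called on the X-1 arrays, 2.15, 2.80 and 3.16 above it on the X-3 arrays, and 1.69, 2.03 and 1.86 above it on the control arrays. With a normexp background correction at an offset of 50 units, the differences were −0.22 for X-1 minus control, 0.70 for X-3 minus control and 0.92 for X-3 minus X-1. Scaled to spike-in RNA on slides 2 and 3, they were −1.74, 0.20 and 1.94, while the median of all genes moved to −0.84, −0.65 and 0.19 in the same comparisons.

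Few genes split as Kdm4d did. All X-1 arrays lay below and all X-3 arrays above all control arrays for 0.621% of the 16736 genes (104), and the reverse held for 0.239% (40). Among the 94 genes with a reference symbol that split in the direction of Kdm4d, Kdm4d ranked 1st by the smaller of its 2 differences from control, which is a description only, since the group was chosen for this split. The genes whose profile over the 9 arrays lay closest to that of Kdm4d, among 13558 searched by root mean square distance of centred log2 levels, were 1700001O22Rik (0.21), Spag4 (0.31), Retsat (0.31), Gask1a (0.33) and Efemp1 (0.33). Spag4 is a SUN-domain protein of the sperm tail and nuclear envelope, Retsat saturates retinol, and Efemp1 is the extracellular matrix protein fibulin-3. The level of 1700001O22Rik was −2.39, −2.46 and −2.43 with X-1, −0.77, −0.59 and −0.49 with X-3, and −1.45, −1.32 and −1.26 in control. Retsat likewise had 1.05, 1.13 and 0.92 with X-1, 2.41, 2.22 and 2.42 with X-3, and 1.59, 1.96 and 1.89 in control. In both genes the 3 groups did not overlap, which is a description only, since the search was for profiles like that of Kdm4d. In Gask1a, X-3 (lowest −3.44) overlapped control (highest −3.42). Efemp1 was among the closest although its difference from control was −0.18 with X-1 and 1.32 with X-3.

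**Figure D3:**
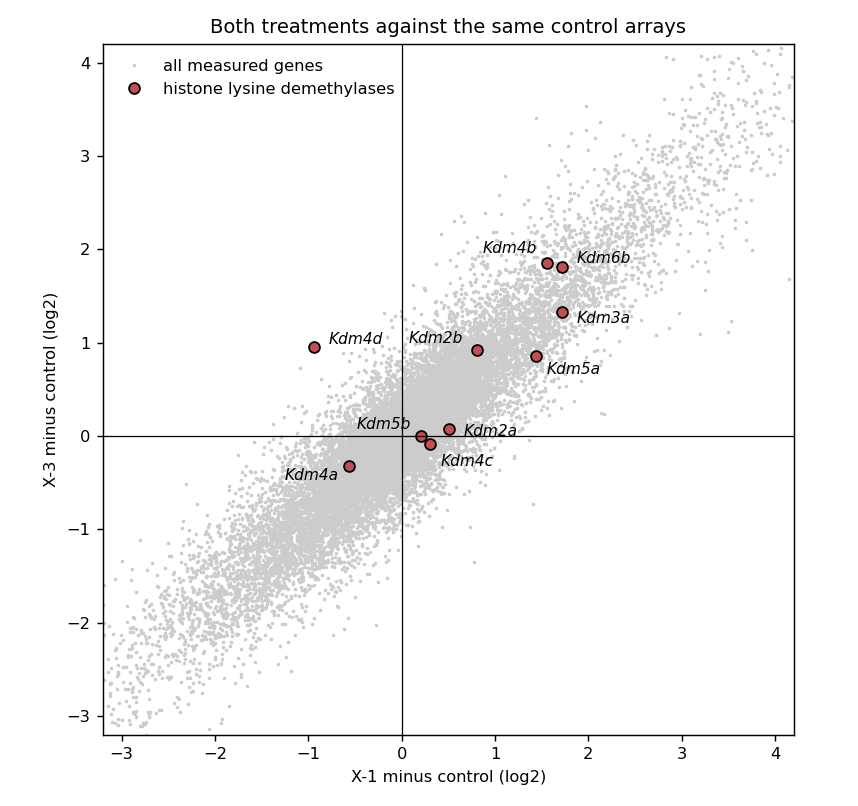
Log2 difference from control with X-1 (x axis) and with X-3 (y axis) for all measured genes (grey, of which 216 of 16736 lie outside the plotted range) and the 10 demethylases (red). Both axes use the same 3 control arrays. Kdm4d lies alone among the members in the upper left, at −0.94 and 0.95, and Kdm3a, Kdm4b, Kdm6b, Kdm2b and Kdm5a lie in the upper right.

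Kdm3a acts on the mono- and dimethylated forms of lysine 9 of histone H3. Its level was 4.54, 4.75 and 4.63 with X-1, 4.43, 4.10 and 4.23 with X-3, and 2.70, 3.13 and 2.95 in control. The treated arrays lay above all control arrays, and those with X-3 below those with X-1. The difference from control was 1.72 ± 0.15 with X-1 (3.29-fold) and 1.33 ± 0.15 with X-3 (2.52-fold), and X-3 minus X-1 was −0.39 ± 0.15 (95% interval −0.73 to −0.05). The size differed between probes. At the Kdm3a probe nearest the 5′ end, the level was 0.38, 0.37 and 0.48 with X-1, 0.53, 0.32 and 0.20 with X-3, and −3.07, −3.44 and −3.17 in control, a difference of 3.64 with X-1 and 3.58 with X-3. At the remaining probe of Kdm3a the differences were 1.90 and 1.20. All 3 probes of Kdm3a were higher with both compounds.

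Kdm4b, which acts on lysines 9 and 36 of histone H3, had a level of 1.29, 1.18 and 1.21 with X-1, 1.41, 1.67 and 1.46 with X-3, and −0.40, −0.27 and −0.33 in control, at its only probe. The arrays of the 3 groups did not overlap, with X-3 highest and control lowest. The difference of Kdm4b from control was 1.56 ± 0.12 with X-1 (2.95-fold) and 1.85 ± 0.12 with X-3 (3.59-fold), and X-3 exceeded X-1 by 0.29 ± 0.12 (95% interval 0.02 to 0.55).

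Kdm4a and Kdm4c act on the same lysines as Kdm4b. The Kdm4a level was 1.97, 1.82 and 1.51 with X-1, 2.25, 1.94 and 1.86 with X-3, and 2.61, 2.25 and 2.13 in control. X-1 arrays lay below all control arrays, while X-3 arrays overlapped both other groups. The differences of Kdm4a from control were −0.56 ± 0.18 with X-1 and −0.32 ± 0.18 with X-3, and within slides they ran from −0.64 to −0.43 with X-1 and from −0.36 to −0.27 with X-3. A 2nd Kdm4a probe gave −0.56 and 0.26. Closest to Kdm4a in profile were Pdlim1 (distance 0.087), Ap2s1 (0.088), Rpia (0.089), Mrps35 (0.093) and Spry2 (0.093), a LIM-domain protein, a clathrin adaptor subunit, an enzyme of the pentose phosphate pathway, a subunit of the mitochondrial ribosome and an inhibitor of receptor tyrosine kinase signalling.

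The Kdm4c level was 1.05, 1.41 and 1.31 with X-1, 1.18, 0.72 and 0.69 with X-3, and 0.98, 0.98 and 0.90 in control. X-1 arrays lay just above the control arrays, and X-3 arrays on both sides of them. The differences of Kdm4c from control were 0.30 ± 0.16 with X-1 and −0.09 ± 0.16 with X-3 (−0.25 without X-3 replicate 1). X-3 minus X-1 was −0.39 ± 0.16 for Kdm4c (−0.55 without X-3 replicate 1), and within slides 0.13, −0.69 and −0.62. A 2nd Kdm4c probe, nearer the 5′ end, differed from control by 0.01 with X-1 and by −0.58 with X-3. Within slides 1, 2 and 3, X-3 minus control at that probe was −1.98, 1.02 and −0.77.

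Promoter windows from RefSeq (GRCm38), the 250 bases before an annotated start, were found for 6 of the 10 members, 12 windows in all. They were searched on both strands for ACGTG and GCGTG, the core of the hypoxia response element, since Kdm3a and Kdm4c are known hypoxia genes. Of the 12 windows 7 (58.3%) held at least 1 match, against 38.6% of 32851 windows over all genes. Of those 7 windows 4 were of Kdm2b alone, and 2 of these overlap and hold the same sites, so the windows are not independent. Both motifs contain CG. The windows of Kdm2b were 58.4 to 80.8% G and C, and the windows over all genes were not matched for this. Shown are a window of Kdm3a (chr6:71632918-71633167, minus strand), higher with both compounds, one of Kdm4c (chr4:74251629-74251878, plus strand), and that of Kdm4d (chr9:14500483-14500732, minus strand), which split between the compounds. Each reads 5′ to 3′ along the gene, with matches on either strand in capitals.
Kdm3a: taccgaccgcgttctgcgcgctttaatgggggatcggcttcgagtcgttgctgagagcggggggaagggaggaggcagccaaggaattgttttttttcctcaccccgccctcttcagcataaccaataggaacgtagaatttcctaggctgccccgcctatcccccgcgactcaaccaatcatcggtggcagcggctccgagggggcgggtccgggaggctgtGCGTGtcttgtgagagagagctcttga
Kdm4c: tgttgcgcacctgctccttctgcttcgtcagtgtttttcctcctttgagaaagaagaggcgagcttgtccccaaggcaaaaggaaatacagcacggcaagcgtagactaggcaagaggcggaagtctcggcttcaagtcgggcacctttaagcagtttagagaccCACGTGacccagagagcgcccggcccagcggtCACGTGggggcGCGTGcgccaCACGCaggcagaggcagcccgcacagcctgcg
Kdm4d: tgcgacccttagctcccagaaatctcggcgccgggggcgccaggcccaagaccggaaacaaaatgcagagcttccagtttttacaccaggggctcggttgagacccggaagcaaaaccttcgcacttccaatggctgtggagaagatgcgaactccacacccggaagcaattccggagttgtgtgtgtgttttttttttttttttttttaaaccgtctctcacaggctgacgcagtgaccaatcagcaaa
The Kdm3a window held 1 match, 27 bases before the start, and 2 further windows of Kdm3a held 0. The Kdm4c window shown held 6 overlapping or separate matches, 4 of them within 2 copies of the palindrome CACGTG, which 6.0% of all windows hold, and the other window of Kdm4c held 0. The Kdm4d and Kdm4a windows held 0 and that of Kdm5b held 2. A match is a description of the letters in a window. Kdm2a, Kdm4b, Kdm5a and Kdm6b are named only.

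Kdm6b removes methyl groups from lysine 27 of histone H3 and is known as an early gene of stress and inflammation. Its level was 4.17, 4.22 and 3.61 with X-1, 3.92, 4.17 and 4.16 with X-3, and 2.50, 2.11 and 2.22 in control. The treated groups overlapped each other and lay above all control arrays. The difference of Kdm6b from control was 1.72 ± 0.19 with X-1 (3.30-fold) and 1.81 ± 0.19 with X-3 (3.50-fold). X-3 minus X-1 was 0.09 ± 0.19 for Kdm6b (95% interval −0.34 to 0.51), which does not show that the compounds act alike on this gene.

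Kdm2a and Kdm2b bind CpG islands and act on lysine 36 of histone H3, and Kdm2b also brings a polycomb complex to those islands. The Kdm2b level was 0.07, 0.14 and 0.07 with X-1, 0.14, 0.18 and 0.29 with X-3, and −0.73, −0.68 and −0.73 in control. Replicates were tight, and both treated groups lay above control. The differences of Kdm2b from control were 0.81 ± 0.10 with X-1 (1.75-fold) and 0.92 ± 0.10 with X-3 (1.89-fold), and X-3 minus X-1 was 0.11 ± 0.10. A 2nd probe next to it gave 0.96 with X-1 and 1.12 with X-3, and a probe nearer the 5′ end of Kdm2b, well above background on 5 of 9 arrays, gave −0.63 and 0.10.

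The Kdm2a level was 2.15, 2.32 and 2.00 with X-1, 1.5, 1.89 and 1.78 with X-3, and 1.56, 1.67 and 1.71 in control, at its only probe. X-1 arrays lay above all others, while X-3 and control overlapped. X-3 minus X-1 was −0.43 ± 0.14 for Kdm2a (95% interval −0.76 to −0.11), and within slides −0.65, −0.43 and −0.22. With spike-in scaling on slides 2 and 3, X-1 minus control turned to −0.43 for Kdm2a, −0.09 for Kdm2b and −0.48 for Kdm4c, where the median of all genes was −0.84. Relative to that median they were 0.41, 0.75 and 0.36.

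Kdm5a and Kdm5b remove methyl groups from lysine 4 of histone H3, and their levels depended on the probe and on X-3 replicate 1. The Kdm5a level was 2.89, 2.24 and 2.18 with X-1, 1.33, 2.18 and 2.07 with X-3, and 1.36, 0.81 and 0.84 in control. X-1 arrays lay above all control arrays, whereas X-3 replicate 1 lay within the control range. X-1 minus control was 1.44 ± 0.28 for Kdm5a (2.71-fold), and 1.53, 1.43 and 1.34 within slides 1, 2 and 3. X-3 minus control was 0.86 ± 0.28, but −0.03 within slide 1, against 1.38 and 1.23 within slides 2 and 3, and 1.12 without X-3 replicate 1. The 3 other kept probes of Kdm5a gave 0.85 to 1.29 with X-1 and 0.46 to 1.30 with X-3, all higher than control. X-3 minus X-1 was −0.58 ± 0.28 with all arrays, −0.32 without X-3 replicate 1, and −0.09 without slide 1.

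At the brightest probe of Kdm5b the level was 0.38, −0.36 and −0.27 with X-1, −2.05, 0.64 and 0.53 with X-3, and 0.02, −0.35 and −0.57 in control. X-3 replicate 1 was the lowest of the 9 arrays and X-3 replicates 2 and 3 the highest. X-3 minus control was 0.00 ± 0.63 for Kdm5b with all arrays, 0.88 without X-3 replicate 1 and 1.04 without slide 1. X-1 minus control was 0.21 ± 0.63. This SE rests on the spread pooled over the 3 groups, whose SDs were 0.40 with X-1, 1.52 with X-3 and 0.30 in control. At a Kdm5b probe near the 3′ end the level was −0.46, −0.62 and −0.50 with X-1, −0.39, −0.40 and −0.34 with X-3, and 0.03, −0.08 and −0.17 in control. There all treated arrays lay below all control arrays, by 0.46 with X-1 and by 0.30 with X-3 on average. The 2 probes of Kdm5b therefore gave different directions, and no direction is given for the gene.

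Set against each other at the same dose and time, X-3 and X-1 differed in Kdm4d by more than in any other member. The opposite differences of Kdm4d chose the group, so its place among the members is a description only. With all arrays, X-3 minus X-1 ran from −0.58 (Kdm5a) to 0.29 (Kdm4b) for the 9 others. The median over all 10 members was −0.06, against 0.01 over all genes. The range depended on X-3 replicate 1. Kdm5b, at −0.21 ± 0.63 with all arrays, was 0.67 without that array and 0.90 without slide 1. Kdm5a was −0.32 and −0.09. The 95% interval of the difference lay below 0 for Kdm2a, Kdm3a and Kdm4c, and above 0 for Kdm4b and Kdm4d. Past the adjusted threshold was 1 of 10 members, where 6.97% of all genes were past it as higher with X-3 (1167) and 3.57% as lower (598). The group was chosen by this contrast too, so nothing is read from the count. With spike-in scaling 1589 genes were higher and 270 lower. Without slide 1 the count was 5 of 10 (3 higher and 2 lower), while the calls over all genes went to 6421 without slide 1, against 1765 with all arrays, and to 3408 without X-3 replicate 1.

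**Figure D4:**
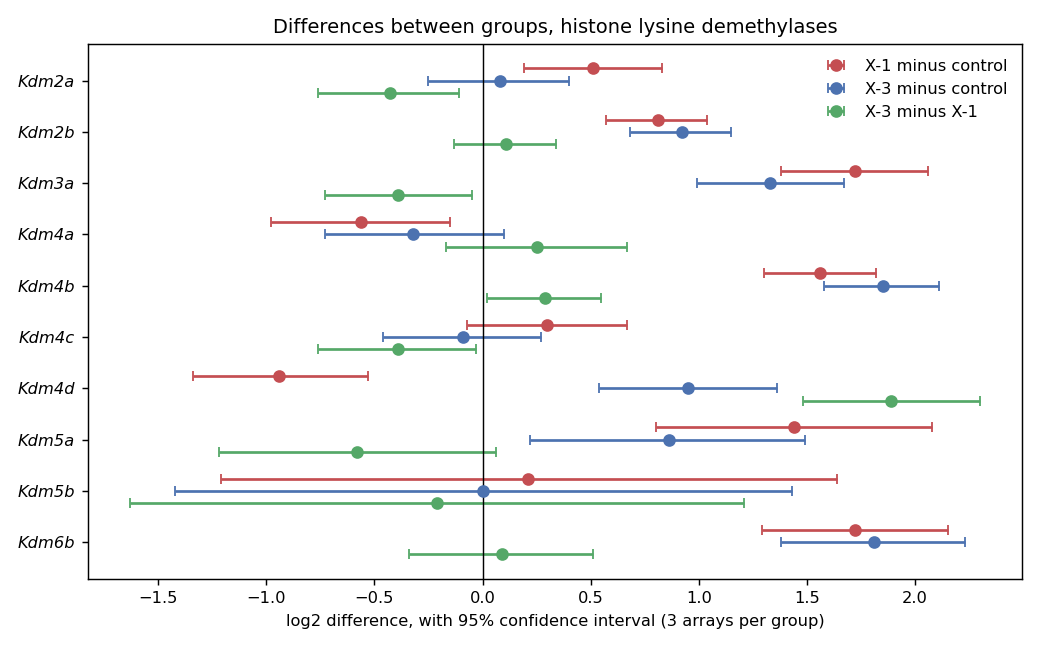
Log2 difference (x axis) of each demethylase for X-1 minus control, X-3 minus control and X-3 minus X-1, with 95% confidence intervals from the fit of all 9 arrays. Kdm4d has the only X-1 and X-3 intervals on opposite sides of 0 (−1.34 to −0.53 and 0.54 to 1.36). The widest intervals are those of Kdm5b (−1.42 to 1.43 with X-3).

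Genes beside the group were tested with limma, two-sided, with adjustment over all 16736 genes. Of 16 other lysine demethylases 13 were measured, and Kdm5d, Uty and Hr were not. With X-1, 5 rose, 2 fell and 6 did not pass, with a median of 0.51, where 28.0% of all genes rose and 28.2% fell. With X-3, 5 rose, 3 fell and 5 did not pass, with a median of 0.21, where 28.9% of all genes rose and 26.4% fell. With median scaling 3 rose and 2 fell with X-1 and 3 and 3 with X-3, and with spike-in scaling 1 rose and 5 fell with either compound. The groups share 1 estimate of the spread, so X-3 replicate 1 also bears on calls with X-1. Without that array 8 rose and 2 fell with X-1, and 6 and 3 with X-3. Jmjd6, a Jumonji C enzyme known mainly as a lysyl hydroxylase of splicing factors, had a level of 4.24, 4.43 and 4.44 with X-1, 4.0, 4.26 and 4.27 with X-3, and 0.85, 1.05 and 0.91 in control. Jmjd6 rose by 3.43 ± 0.13 with X-1 (10.8-fold, limma adjusted p = 2.66e-07) and by 3.24 ± 0.13 with X-3 (9.43-fold, adjusted p = 3.95e-07), in all arrays. Its other probes gave 2.65 and 3.99 with X-1, and 2.52 and 3.64 with X-3.

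Jmjd1c, the closest relative of Kdm3a and Kdm3b, had 0.02, 0.14 and 0.28 with X-1, 0.12, −0.16 and 0.15 with X-3, and −1.22, −0.56 and −0.90 in control. It rose by 1.04 ± 0.18 with X-1 (limma adjusted p = 0.000992), a call lost with spike-in scaling (0.04). Phf8, which removes methyl groups from lysine 9 of histone H3 and lysine 20 of histone H4, had 0.95, 1.17 and 1.00 with X-1, 1.05, 0.40 and 0.53 with X-3, and 2.03, 1.87 and 1.79 in control. Phf8 fell by 0.86 with X-1 (limma adjusted p = 0.00279) and by 1.24 with X-3 (adjusted p = 0.000362). Its relative Phf2 rose by 1.06 ± 0.14 with X-3 (limma adjusted p = 0.000256), a call lost with spike-in scaling (0.43, adjusted p = 0.212). Between the compounds 0 of 13 passed the limma threshold, with 3 at an unadjusted p under 0.05, a median difference of −0.27 and differences from −0.58 to 0.46. Without slide 1, 5 of 13 passed.

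All 28 histone lysine methyltransferases listed were measured. With X-1, 8 rose, 5 fell and 15 did not pass, and with X-3, 6 rose, 7 fell and 15 did not pass, with medians of 0.10 and 0.22. These counts stand against the same shares of all genes, 28.0% and 28.2% with X-1 and 28.9% and 26.4% with X-3. With the replicate number as a block, 10 rose and 7 fell with X-3. Without X-3 replicate 1, 9 rose and 6 fell with X-1, and 10 and 7 with X-3. Prdm2, a methyltransferase for lysine 9 of histone H3, had 0.29, 0.19 and 0.11 with X-1, 0.36, 0.53 and 0.65 with X-3, and −2.11, −1.96 and −1.83 in control. Prdm2 rose by 2.17 ± 0.13 with X-1 (4.49-fold, limma adjusted p = 1.75e-06) and by 2.48 ± 0.13 with X-3 (5.59-fold, adjusted p = 1.34e-06). Smyd3, known as a lysine methyltransferase of histones and of a MAP kinase kinase kinase, fell by 1.79 ± 0.22 with X-1 (limma adjusted p = 0.000116) and by 1.89 ± 0.22 with X-3 (adjusted p = 9.92e-05). Nsd3, an enzyme for lysine 36 of histone H3, differed by −1.76 and −2.03 at its brightest probe. Its 3 other kept probes gave 0.56 to 2.34 with X-1 and 0.54 to 2.58 with X-3, so its probes disagreed in direction (it is counted above among those that fell). Probes also disagreed for Suv39h2 and Nsd2, counted as risen, and Setd7, counted as fallen. With X-1 and X-3, the other kept probe of Suv39h2 gave −0.53 and −1.08. Those of Nsd2 gave −1.44 to 1.39 and −1.12 to 1.74, and those of Setd7 −0.41 to 1.24 and −0.77 to 1.75. Other kept probes of Kmt2e, Setd1b, Smyd2, Smyd3, Ash1l and Kmt5b went in the direction of the calls. With median scaling 5 methyltransferases rose and 6 fell with X-1 and 4 and 7 with X-3, and with spike-in scaling 2 rose and 17 fell, and 3 and 13.

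X-3 and X-1 differed in 3 of 28 methyltransferases, 1 higher with X-3 and 2 lower, where 6.97% of all genes were higher and 3.57% lower, so the count is near the background. At an unadjusted p under 0.05 there were 7, and with median scaling 0 were called. Kmt5b, which adds methyl groups to lysine 20 of histone H4, had −0.88, −1.09 and −0.95 with X-3, −0.32, −0.03 and −0.15 with X-1, and −1.66, −1.66 and −1.68 in control. X-3 minus X-1 was −0.80 ± 0.12 for Kmt5b (limma adjusted p = 0.00702), a call lost with median scaling (−0.81, adjusted p = 0.0611) and with spike-in scaling (−0.73, adjusted p = 0.101). Setd1b, of a complex that methylates lysine 4 of histone H3, had 3.07, 3.33 and 3.46 with X-3, 3.77, 4.13 and 3.88 with X-1, and 3.99, 3.98 and 3.84 in control, with X-3 minus X-1 at −0.64 ± 0.15 (limma adjusted p = 0.0283). Ezh1, a polycomb methyltransferase for lysine 27 of histone H3, had −1.74, −1.63 and −1.33 with X-3, −1.94, −2.32 and −2.15 with X-1, and −2.61, −2.59 and −2.49 in control, with X-3 minus X-1 at 0.57 ± 0.15 (limma adjusted p = 0.0427). With the slide as a block the Ezh1 call was lost (adjusted p = 0.0527). Over all settings tried, the adjusted p ran from 0.00997 to 0.149 for Ezh1 and from 0.0144 to 0.424 for Setd1b, and from 0.00406 to 0.101 for Kmt5b.

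**Figure D5:**
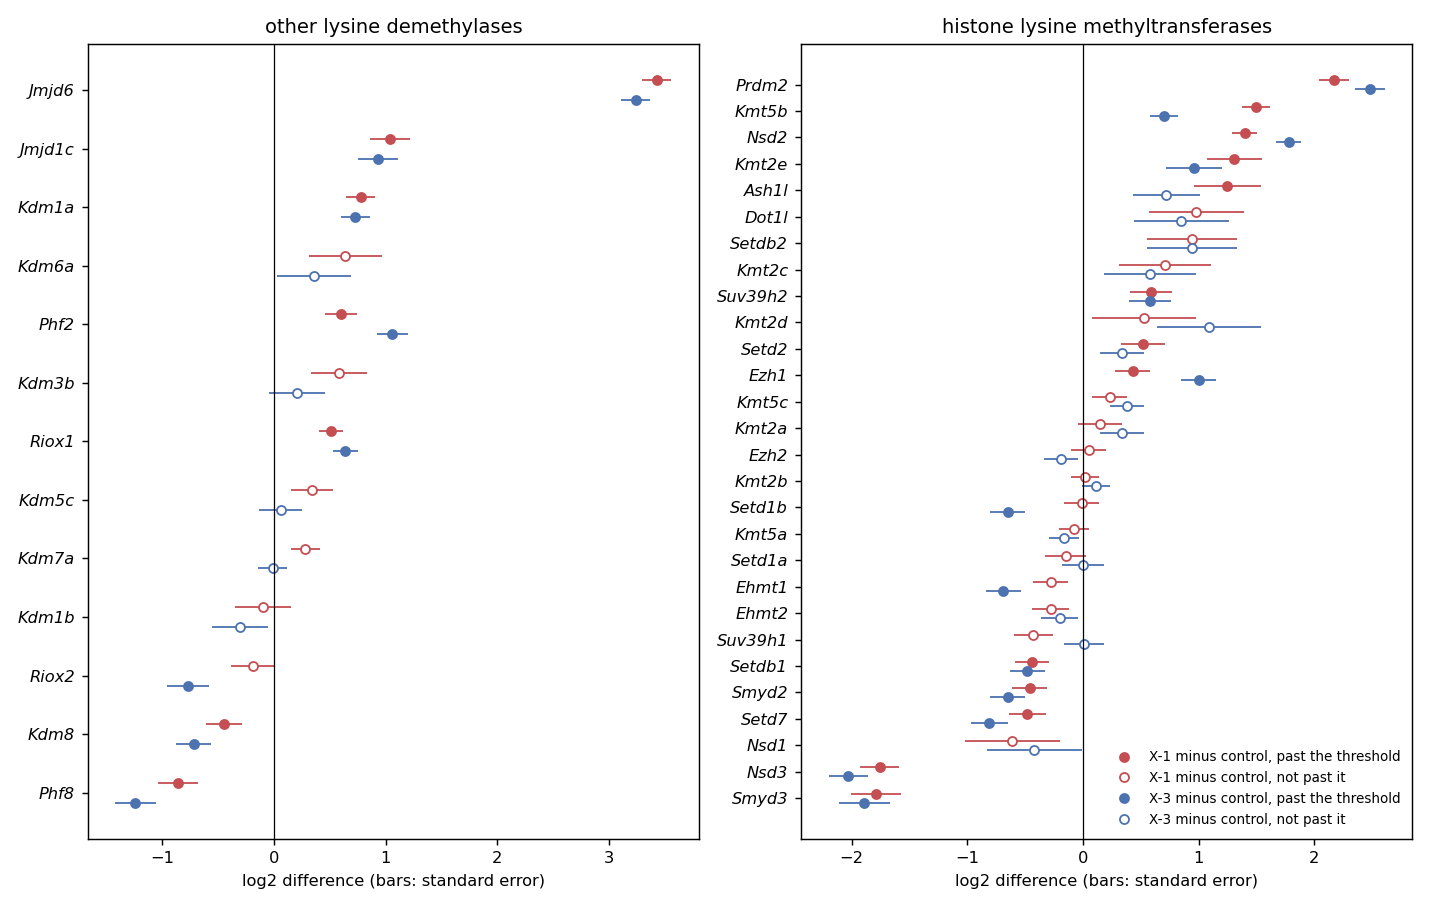
Log2 difference from control (x axis, with SE) for 13 other lysine demethylases (left) and 28 histone lysine methyltransferases (right), with X-1 and with X-3. Filled points passed the threshold and open points did not. Jmjd6 lies farthest from 0, at 3.43 with X-1 and 3.24 with X-3.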

How the data were processed

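Total RNA (0.5 µg per sample, per the labels' protocols) was amplified, labelled with Cy3 and read on one-colour Agilent arrays. The deposited scanner files hold background-subtracted spot intensity values with no scaling between arrays, from Agilent Feature Extraction 10.5.1.1 (replicate 1) and 10.7.3.1 (replicates 2 and 3) per the file headers, although version 9.1 is named in the submitters' processing notes. The authors' deposited series table holds a score per probe with mean 0, SD 1 and median −0.12 in every column, and a change of 1 in score matched 3.95 to 4.25 log2 units. It was used only as an alternative. The build of the array design is mm9 per the file headers, and gene loci and promoters are those of GRCm38 in RefSeq.

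Of 41174 gene probes, 214 marked as outliers were left out. A probe passed the filter (25288 did) if the software called it well above background in every array of 1 group or more. Each gene takes its values from the brightest such probe, so that 16736 genes or unnamed features were tested, 13559 of them with a reference symbol. From the log2 processed intensity the array's 75th percentile was subtracted. Groups, taken from the sample titles, were compared by lmFit and eBayes of limma 3.58.1 (R 4.3.3), two-sided, with the 9 arrays in a single fit and no term but group. The threshold was a Benjamini-Hochberg adjusted p of 0.05. The scripts were tested on simulated data. The number of arrays limits the precision.

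The members, the other lists and the rule for naming genes were chosen with earlier results of these data known. All members are named. From each other list those named are the 3 with the largest called difference from control with each compound and groups that did not overlap, and all called between the compounds. The test of X-3 against X-1 planned for the members is given only as a count, because the choice of Kdm4d used both differences from control and so that contrast too. The alternatives were median, quantile and spike-in scaling, normexp correction, no filter on dim probes, the mean of kept probes, the deposited scores, the replicate number as a block, values within slides, and leaving out arrays or slide 1. The normexp correction used the median spot signal, since the mean signal was read for replicate 1 only.

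Same-numbered replicates shared a slide. Slide 1 was scanned with the earlier software and had 2 of 10 spike-in probes above background on each array, against 8 or 9 on the other slides, so spike-in scaling used replicates 2 and 3. Position on the slide and group cannot be told apart. After subtraction of group means, arrays with the same number correlated across genes at 0.517, 0.318 and 0.271 for X-1 and control. The values were 0.238, 0.112 and 0.23 for X-3 and control, and −0.041, −0.182 and 0.156 for X-3 and X-1. They were thus above 0 at each number between either compound and control, and on both sides of 0 between the compounds. Arrays with different numbers were not compared in this way.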

Additional observations from a re-analysis of the deposited data

Results flagged for a closer look

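Kdm4d was marked for its difference between X-3 and X-1. Every X-1 array lay below, and every X-3 array above, the control array of its slide. X-3 minus X-1 was 1.89 on the log2 scale, and no test of this difference is given, since it chose the group.

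In the methyltransferases, 3 genes differed between the compounds by the test of the difference itself, X-3 minus X-1, near the share of all genes (6.97% higher and 3.57% lower), and 0 of 28 with median scaling. It was -0.64 for Setd1b, 0.57 for Ezh1 and -0.80 for Kmt5b.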

How the results depend on the processing

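Genes called between X-3 and X-1, 1765 with all arrays, numbered 462 with median scaling, 1078 with normexp correction, 545 with no filter on dim probes, 6421 without slide 1, and 583 to 3408 when 1 array was left out (583 without X-1 replicate 2, 601 without X-1 replicate 3, 728 without X-3 replicate 2, 739 without X-3 replicate 3, 1054 without control replicate 3, 3408 without X-3 replicate 1). Demethylases called there, 1 with all arrays, numbered 2 with spike-in scaling, 2 with the mean of kept probes, 5 without slide 1, and 1 to 2 with 1 array left out. Other lysine demethylases called there, 0 with all arrays, numbered 5 without slide 1 and 0 to 2 with 1 array left out (2 without X-3 replicate 1). Methyltransferases called, 13 against control with each compound and 3 between the compounds, numbered 7 with X-1 with no filter on dim probes and 8 to 15 with 1 array left out (8 without control replicate 2 or 3), 21 with X-3 without slide 1, and, between the compounds, 0 with median scaling, 1 with no filter, 15 without slide 1 and 1 to 4 with 1 array left out. Demethylases past the threshold with X-1 against control, 6 higher and 2 lower, numbered 2 higher and 3 lower with spike-in scaling. The other counts given for all genes and for the 2 other lists, both directions together, stayed within 1.5 times. X-1 minus control reversed with spike-in scaling for Kdm2a (-0.43), Kdm2b (-0.09) and Kdm4c (-0.48), as did X-3 minus X-1 for Kdm5a (0.11), and the mean of kept probes reversed Nsd3 (0.74 with X-1 and 0.90 with X-3). The cause of these changes was not tested. Of 900 values for single genes under an alternative, 780 kept their direction and side of the threshold or moved by less than 1 SD. A further 89 moved more, 25 lost their call (10 of them Setd1b, 11 Ezh1 and 2 Kmt5b between the compounds) and 6 reversed. A value was counted as reversed only where its groups did not overlap with all arrays. Other changes of sign are among the 780 or the 89. Under spike-in scaling, for example, Kdm2a went from 0.08 to -0.55 for X-3 minus control. Kdm5b likewise went from 0.21 to -0.76 for X-1 minus control. With the replicate number as a block, 1728 genes were called between the compounds, the Ezh1 difference of 0.57 lost its call, and methyltransferases that rose with X-3 numbered 10, against 6. Demethylases lower with X-3 numbered 1 with the block, against 0. No other call of a gene named from the 2 other lists was lost with it, and no count of both directions together moved by over 1.5 times for all genes or those lists. Dim signal limits Kdm4d with X-1, which lay as little as 0.09 above the lowest signal called well above background.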

Other observations

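Kdm7a, a demethylase for lysines 9 and 27 of histone H3 chosen here after its values were seen, did not pass the threshold at its brightest probe (0.28 with X-1 and -0.01 with X-3). Its 2 other kept probes gave 2.87 and 1.13 with X-1, and 2.75 and 0.99 with X-3, on the log2 scale, with no test.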
